A study of Mus musculus with 4 samples.

Results

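The collagen genes of mouse embryonic 3T3 fibroblasts were followed through a time course of tumour necrosis factor (TNF), an inflammatory cytokine. The members were all genes whose symbol in the probe annotation reads Col, a number, a and a number; there were 42 of them among 18193 named genes, read by 82 probe sets, and each was represented by its probe set of highest mean log2 signal. 3T3 cells are an immortal fibroblast line. The cells of all 4 groups stood overnight in 0.5% serum and were then harvested (basal) or given TNF for 0.5, 2 or 12 h, at 10 ng/ml for 0.5 and 12 h. For 2 h the treatment text matches the basal one and names no concentration; that array was placed at 2 h of TNF by its title and source name. Each group had 1 array, so there is no spread between replicates, 0 tests were run, and each ratio below compares 2 arrays. Untreated cells of matching times were not analysed here, so TNF and the added time cannot be told apart.

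Collagens are secreted proteins whose chains wind around each other in a triple helix. Fibrillar collagens such as types I, III and V pack into the cross-striated fibrils that give tissue its tensile strength. Type IV chains form the sheet-like network of basement membranes, where types XV and XVIII are also found, and other collagens coat fibrils, form beaded filaments or anchoring fibrils, or cross the cell membrane. Fibroblasts make much of the body's fibrillar collagen, and TNF is known from work on other fibroblasts to lower transcription of the type I genes. The 42 genes were split into 11 fibrillar, 8 basement membrane (6 type IV chains with Col15a1 and Col18a1) and 23 other collagens.

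RefSeq promoter windows (GRCm38.p6, 250 bases before to 50 after the start) were found for 33 of the 42 genes. Those of 5 genes are shown because the results turn on them: Col1a2 as a steady fibrillar gene, Col11a1, Col5a3 and Col6a1 as the genes that stood furthest from basal at 12 h among those described in full, and Col4a1 because its window overlaps that of Col4a2. Capitals mark CCAAT on either strand in Col1a2, Col11a1 and Col5a3, and TGANTCA in Col6a1. In Col4a1 they mark the 78 bases shared with the window of Col4a2 on the opposite strand (chr8:11312777-11312854). The windows lie at chr6:4505368-4505667 (plus strand, Col1a2), chr3:114030290-114030589 (plus, Col11a1), chr9:20815018-20815317 (minus, Col5a3), chr10:76725995-76726294 (minus, Col6a1) and chr8:11312777-11313076 (minus, Col4a1).
Col1a2: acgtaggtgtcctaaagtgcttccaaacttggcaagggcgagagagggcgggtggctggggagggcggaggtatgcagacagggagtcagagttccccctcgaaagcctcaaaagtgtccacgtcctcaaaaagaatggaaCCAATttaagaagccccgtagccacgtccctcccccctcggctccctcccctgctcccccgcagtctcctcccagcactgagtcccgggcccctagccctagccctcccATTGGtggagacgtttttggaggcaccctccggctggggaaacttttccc
Col11a1: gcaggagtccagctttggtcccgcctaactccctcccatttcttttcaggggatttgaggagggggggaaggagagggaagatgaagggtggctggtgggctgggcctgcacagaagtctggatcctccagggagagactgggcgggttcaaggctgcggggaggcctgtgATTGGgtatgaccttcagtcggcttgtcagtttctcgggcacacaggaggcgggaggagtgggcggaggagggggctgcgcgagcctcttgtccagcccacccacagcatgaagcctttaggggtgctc
Col5a3: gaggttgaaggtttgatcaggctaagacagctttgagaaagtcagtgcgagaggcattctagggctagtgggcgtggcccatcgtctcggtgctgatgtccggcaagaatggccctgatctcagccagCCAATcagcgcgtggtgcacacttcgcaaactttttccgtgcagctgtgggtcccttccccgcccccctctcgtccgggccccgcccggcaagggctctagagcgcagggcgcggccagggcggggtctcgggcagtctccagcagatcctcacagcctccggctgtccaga
Col6a1: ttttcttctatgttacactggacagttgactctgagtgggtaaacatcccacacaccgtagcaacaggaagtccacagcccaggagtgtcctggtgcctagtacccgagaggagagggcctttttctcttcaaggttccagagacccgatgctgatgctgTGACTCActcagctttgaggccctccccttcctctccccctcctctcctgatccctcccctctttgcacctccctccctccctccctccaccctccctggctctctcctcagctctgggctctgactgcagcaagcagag
Col4a1: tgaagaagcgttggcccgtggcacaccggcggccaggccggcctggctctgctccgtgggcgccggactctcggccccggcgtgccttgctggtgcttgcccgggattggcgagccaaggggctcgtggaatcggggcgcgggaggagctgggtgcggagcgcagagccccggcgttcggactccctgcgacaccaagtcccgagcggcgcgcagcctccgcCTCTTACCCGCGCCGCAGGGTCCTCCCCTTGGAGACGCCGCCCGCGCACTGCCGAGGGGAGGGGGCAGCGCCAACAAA

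A search of both strands found CCAAT in 13 of 36 collagen windows and in 37.4% of all 32851 windows, and GGGCGG in 22 of 36 and 35.7%. TATAAA was in 5 of 36 and 13.6%, and TGANTCA in 1 of 36, that of Col6a1, and 7.81%. The NF-kB consensus motif was in 4 of 36 collagen windows and 4.51% of all windows. None of the 15 windows of genes with a clear signal held it. Some genes have more than 1 window, and a match describes letters only.

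Of the 42 collagens, 16 had a mean signal of at least 102, the 75th percentile of all values, and are called clear below. They were 6 of the 11 fibrillar genes (Col1a1, Col1a2, Col3a1, Col5a1, Col5a2, Col11a1), 4 of the 8 basement membrane genes (Col4a1, Col4a2, Col4a5, Col18a1) and 6 of the 23 others (Col6a1, Col6a2, Col6a3, Col8a1, Col12a1, Col16a1). The other 26 lay under 102 on all 4 arrays, with a highest signal of 82.7. The clear share was 38.1% of collagens and 37.3% of all named genes. The member just inside the limit was Col16a1 (mean signal 114, and 101.5 on the basal array) and the one just outside was Col27a1 (68.6).

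The arrays labelled TNF carried a TNF response: Nfkbia, encoding an inhibitor of NF-kB, had signals of 1843, 7476, 5826 and 5134 on the basal, 0.5, 2 and 12 h arrays, and the chemokine gene Cxcl1 had 151, 3211, 1278 and 658. The fibroblast label was checked by 6 markers, of which Vim, Fn1, Sparc and Pdgfrb were clear, while Pdgfra reached 121 on 1 array and Thy1 stayed between 10.9 and 14.6. All markers of macrophages and leukocytes (6), endothelium (5), epithelium (5) and cartilage cells (4) were under 102 on every array, the highest being Csf1r at 69.3. Summed signals ran from 138 to 147 for the leukocyte markers and from 45.7 to 63.1 for the cartilage markers over the 4 arrays. Of the smooth muscle markers Acta2 and Cnn1 were clear and Myh11 and Des were not, and of 3 adipocyte markers only Fabp4 was clear (1856 in basal cells and 1450 at 12 h). The part of the adipocyte and muscle markers in the collagen values was not tested. The arrays also shifted as a whole: the median log2 ratio to basal of the 6792 clear genes was -0.05, -0.12 and -0.21 on the 0.5, 2 and 12 h arrays. A log2 ratio near 0 therefore lies above that of most genes at 12 h, and values relative to these medians are given where it matters.

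**Figure D1:**
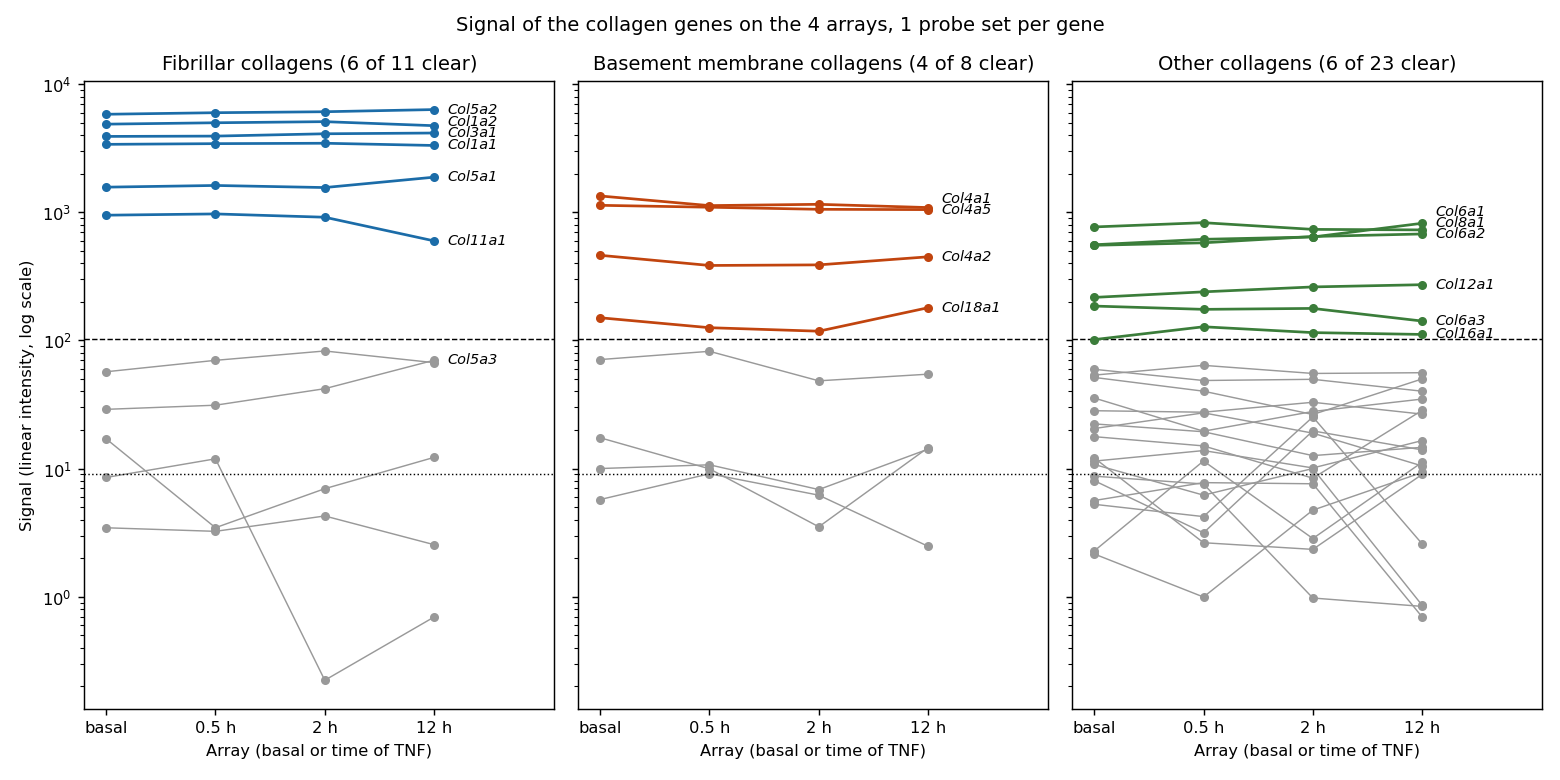
Signal of each collagen gene (linear intensity on a log axis) on the basal, 0.5, 2 and 12 h arrays, 1 line per gene and 1 array per point, in 3 panels by class; coloured lines are the 16 clear genes, grey lines the other 26. The dashed line is the signal of 102 and the dotted line the floor of 9.08. The 16 coloured lines run nearly level and scatter grows under the dashed line.

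On the probe sets used, the clear fibrillar collagens had log2 ratios between -0.05 and 0.07 at 0.5 and 2 h of TNF. At 12 h 5 of 6 lay between -0.04 and 0.26, the highest being Col5a1. Col11a1 was lower at -0.67, and on these probe sets 0 of the 6 passed 2-fold at any time. Other clear probe sets ranged wider for several of these genes. At 2 h those of Col1a1, Col11a1 and Col5a2 gave -0.13, -0.19 and 0.18, while that of Col1a2 gave 0.006. The second clear probe set of Col3a1 ranged further still at 0.5 and 2 h, as given below. Col1a1 (1423669_at), one chain of type I collagen, the main protein of bone, skin and tendon, had signals of 3388, 3431, 3455 and 3320 on the basal, 0.5, 2 and 12 h arrays, the order used throughout. Its partner chain Col1a2 (1450857_a_at) had 4869, 4992, 5093 and 4737. The highest array exceeded the lowest by 1.04-fold for Col1a1 and 1.08-fold for Col1a2. Their log2 ratios at 12 h were -0.03 and -0.04, which is 0.18 and 0.17 above the median of clear genes. Median centring, quantile normalization and loess each placed both genes above basal at 12 h, by at most 0.13. The second probe set of Col1a1 (1455494_at) gave 1105, 1171, 1008 and 946, a log2 ratio of -0.23 at 12 h.

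The type III gene and the clear type V genes also stayed within 2-fold of basal. Col3a1 (1427883_a_at), whose homotrimer accompanies type I in skin and vessels, had signals of 3906, 3929, 4096 and 4153. Its second clear probe set (1427884_at) gave 508, 352, 651 and 337, log2 ratios of -0.53, 0.36 and -0.59, so the probe sets of Col3a1 lay on opposite sides of basal at 0.5 and 12 h. Type V collagen starts fibrils and limits their width. Its chain Col5a2 (1422437_at) had 5817, 5981, 6086 and 6328, and Col5a1 (1416740_at) 1570, 1618, 1559 and 1879. The 12 h array was the highest of the 4 for these 3 genes, with log2 ratios to basal of 0.09, 0.12 and 0.26. The ratio of Col5a1 lay at the 93.6th percentile of clear genes at 12 h.

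Col11a1 (1449154_at), a chain of the type XI collagen that nucleates cartilage fibrils, was lower at 12 h. Its signals were 949, 971, 915 and 598. The first 3 arrays lie close together and the 12 h array stands apart. The log2 ratio at 12 h was -0.67, a 1.59-fold difference, and 0.46 under the median of clear genes. It was at the 8.13th percentile of clear genes, and 11.6% of them were lower by at least 1.5-fold at that time (1.88% were higher). Among clear collagens Col11a1 was the only one of 16 past 1.5-fold. Summed cartilage markers were 57.7, 63.1, 52.8 and 45.7, with Chad under the floor on all arrays, and their part in this value was not tested. Its other probe set (1418599_at) gave 693, 682, 606 and 319, a log2 ratio of -1.12, so that Col11a1 passed 2-fold on 1 of its 2 probe sets.

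Among the fibrillar genes under 102, Col5a3 (1419703_at) was the only collagen to rise at 12 h by the rule of 2-fold with signals raised to a floor of 9.08 (the 30th percentile of all values). Col5a3 encodes the chain that replaces others in some type V trimers. Its signals were 29.0, 31.2, 42.0 and 70.1, highest at 12 h, a 2.42-fold increase over basal. Its other probe set (1425984_at) was at or under 2.48 on all 4 arrays, and with signals raised to 102 the log2 ratio is 0. Col27a1 lay between 57.0 and 82.7, highest at 2 h. Col11a2 and Col24a1 were under the floor on 2 and 3 arrays, and Col2a1, the cartilage fibril gene, was under it on all 4.

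On the probe sets used, the clear basement membrane collagens were all lower than basal at 0.5 and 2 h, by less than 2-fold. Of all clear genes, 64.2% were below basal at 0.5 h and 74.8% at 2 h. Median centring put Col4a5 above basal at 0.5 h. With probe sets averaged per gene, 1 of the 4 was above basal at both times, by 0.04 and 0.08. At 12 h 3 of 4 were lower on the deposited values, while after each of the 3 scalings 3 of 4 were above basal. Col4a1 (1452035_at) had signals of 1340, 1127, 1154 and 1088. Col4a2 (1424051_at) had 462, 385, 389 and 449. These encode the chains of the type IV trimer found in nearly all basement membranes, and their genes lie head to head with the promoter windows that overlap as shown above. Both were highest in basal cells. Their log2 ratios were -0.25 and -0.26 at 0.5 h and -0.22 and -0.25 at 2 h, which differ by 0.01 and 0.03. At 12 h they were -0.30 and -0.04 on the probe sets used, a difference of 0.26, with Col4a2 back near basal.

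At 0.5 h the ratios of Col4a1, Col4a2 and Col18a1 lay at percentiles 10.2, 9.07 and 9.51 of clear genes. At 2 h they lay at percentiles 29.4, 24.5 and 12.7, and that of Col4a5 at 52.7. Col4a1's other probe set (1426348_at) gave -0.09 at 0.5 h and -0.23 at 2 h. At 12 h it gave -0.13, nearer to the -0.04 of Col4a2. Col4a5 (1425476_at), a chain of the kidney and skin type IV networks, had 1133, 1095, 1055 and 1049; its ratio at 0.5 h was -0.05, and median centring turned it to 0.0025. The other values of the 4 genes at 0.5 and 2 h kept their sign under the 3 scalings. At 2 h all but Col4a5 were below the median of clear genes on the probe sets used. The second clear probe set of Col4a5 (1425475_at) gave log2 ratios of -0.0007, -0.28 and -0.26 at 0.5, 2 and 12 h. At 2 and 12 h these lay below the medians of clear genes.

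Col18a1 (1426955_at), which encodes a heparan sulphate proteoglycan core and the source of the fragment endostatin, had signals of 150, 126, 118 and 180. It went from its lowest value at 2 h to its highest at 12 h, a step of 1.52-fold. Its log2 ratio to basal was -0.35 at 2 h and 0.26 at 12 h. The second probe set (1418237_s_at), under 102 throughout, had 40.2, 50.6, 57.5 and 80.5; at 0.5 and 2 h the probe sets thus lay on opposite sides of basal. Of the remaining genes, Col4a6 ranged from 48.4 to 82.3, while Col4a3, Col4a4 and Col15a1 were at most 17.4 on any array and at or under the floor on at least 1.

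Among the other collagens, type VI genes diverged by chain and the fibril-coating Col12a1 was above basal at each time. Type VI trimers assemble into beaded filaments near the cell surface. Col6a1 (1448590_at) had signals of 558, 615, 642 and 821, a step up at each time. Col6a2 (1452250_a_at) had 553, 578, 647 and 677. Col6a3 (1424131_at) had 185, 175, 178 and 142, lowest at 12 h. Col6a1 and Col6a2 were therefore lowest and Col6a3 highest in basal cells on the probe sets used.

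At 12 h the log2 ratios were 0.56 for Col6a1, 0.29 for Col6a2 and -0.39 for Col6a3. Col6a1 and Col6a3 thus differed by 0.95, against 0.26 at 2 h and 0.23 at 0.5 h. Col6a2 and Col6a3 differed by 0.68 at 12 h and Col6a1 and Col6a2 by 0.26. In other collagens partner chains differed at 12 h, on the probe sets used, by 0.01 (Col1a1 and Col1a2) and 0.14 (Col5a1 and Col5a2). The difference was 0.26 for Col4a1 and Col4a2, and 1.01 for Col5a1 and the low Col5a3. Col6a1 was at the 97.9th percentile of clear genes at 12 h and Col6a3 at the 26.8th. The second clear probe set of Col6a2 (1426947_x_at) gave 0.11 at 12 h, -0.05 at 2 h and -0.07 at 0.5 h, so basal was not its lowest array. Col6a1 and Col6a3 have 1 probe set each.

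Col12a1 (1434411_at), whose protein sits on fibril surfaces, had 217, 239, 262 and 272, higher on each later array. Its other clear probe set gave log2 ratios of 0.19, 0.15 and 0.15 beside 0.14, 0.27 and 0.33. Col16a1 (1427986_a_at), of the same fibril-associated family, had 101.5, 128, 115 and 111, with its highest value at 0.5 h (log2 ratio 0.33, 97.4th percentile). Col8a1 (1455627_at), a short chain that forms hexagonal networks, had 768, 829, 735 and 728.

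**Figure D2:**
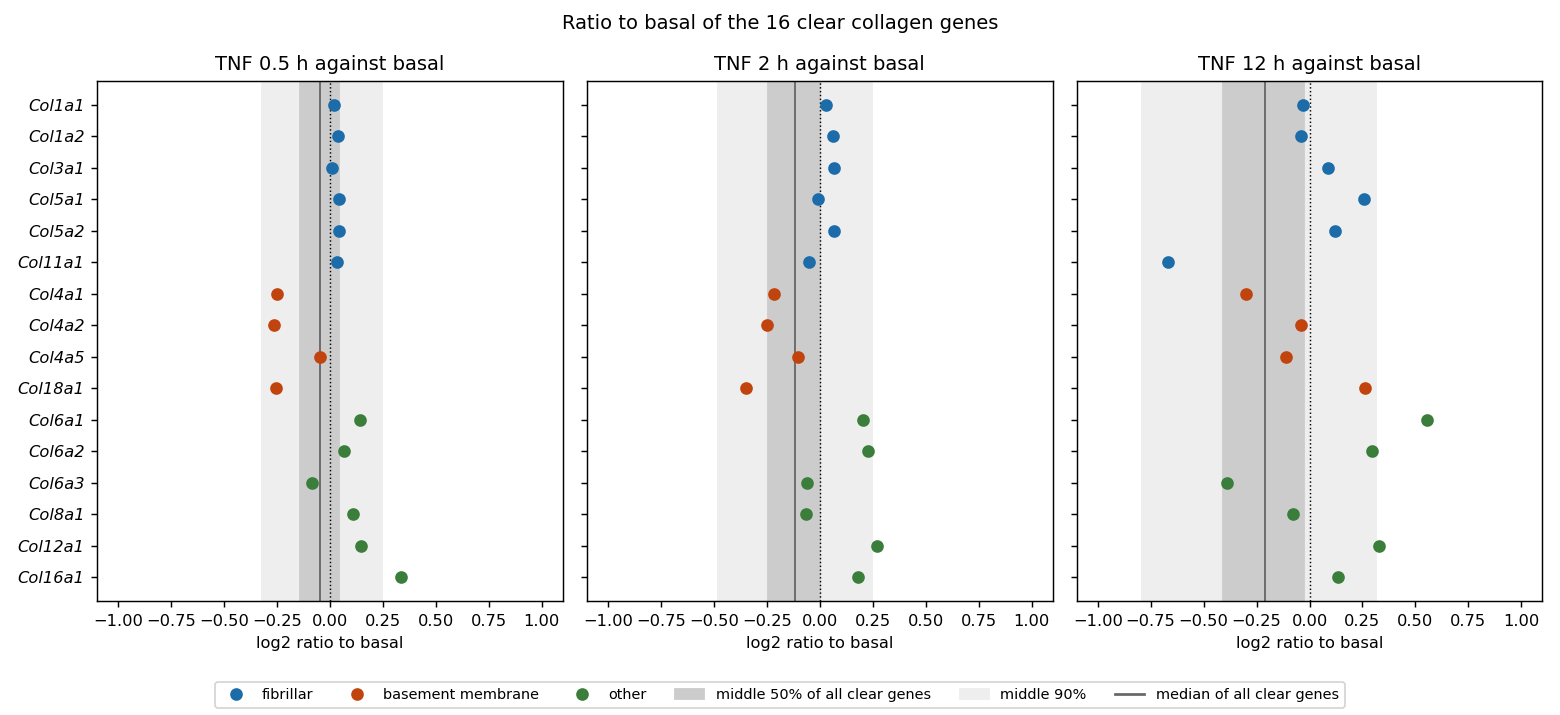
The log2 ratio to basal (x axis) of the 16 clear collagen genes (rows, coloured by class) at 0.5, 2 and 12 h, 1 array against 1; grey bands are the middle 50% and 90% of the 6792 clear genes and the grey line their median. Col4a1, Col4a2 and Col18a1 sit left of the darker band at 0.5 h, Col11a1 left of it at 12 h, and Col6a1 and Col12a1 right of the lighter band at 12 h.

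The remaining 17 other collagens were under 102 throughout. Above the floor on all 4 arrays were Col7a1 (40.2 to 59.5), the anchoring fibril gene, Col10a1 (53.6 to 63.9), a marker of hypertrophic cartilage, Col25a1 (26.4 to 51.5), Col8a2, Col9a1, Col14a1, Col22a1 and Col23a1, the last 5 never over 35.6. Col6a4, Col9a3, Col13a1, Col17a1, Col19a1, Col20a1 and Col26a1 were at or under the floor on 1 to 3 arrays, and Col6a5 and Col9a2 on all 4. At 2 h Col6a4 (25.3) and Col20a1 (19.7) came from under the floor, at least 2.79-fold and 2.17-fold higher. The other probe set of Col6a4 (1429072_at) went from 6.81 to 1.75 at 2 h, and the 3 others of Col20a1 were at most 6.69 there, all under the floor. At 12 h the probe sets used for these genes were within 2-fold of basal, and another of Col20a1 (1425235_s_at) had 23.9, from under the floor in basal cells. The lowest log2 ratio at 12 h was that of Col9a1, -0.97.

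Over the family, 0 of the 39 collagens analysed (3 were at the floor on all arrays) rose and 0 fell at 0.5 h. At 2 h 2 rose and 0 fell, and at 12 h 1 rose and 0 fell. Over all 16269 genes analysed, 2.55% rose and 2.96% fell at 0.5 h, 2.58% and 3.6% at 2 h, and 2.79% and 5.18% at 12 h. Such shares come to about 1 or 2 genes of 39, so the counts were near the background. Among clear collagens 0 of 16 changed 2-fold at 0.5, 2 or 12 h. Of the 6792 clear genes 0.339% rose and 0% fell at 0.5 h, 0.545% and 0.191% at 2 h, and 0.648% and 2.31% at 12 h. For 16 genes, shares of that size amount to less than 1 gene.

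By class, the median log2 ratios of clear genes at 0.5 h were 0.03 for fibrillar, -0.25 for basement membrane and 0.13 for other collagens. At 2 h they were 0.05, -0.23 and 0.19, and at 12 h 0.03, -0.08 and 0.21. Relative to the medians of all clear genes, they were 0.08, -0.21 and 0.17 at 0.5 h, 0.16, -0.12 and 0.31 at 2 h, and 0.24, 0.13 and 0.42 at 12 h. Of the 16 clear collagens 8 were above basal and 8 below at 12 h on the deposited values of the probe sets used. After median centring, quantile normalization or loess 13 were above basal and 3 below. On the deposited values 13 lay above the median of clear genes, and Col4a1, Col6a3 and Col11a1 below it. Of the 16, 8 lay above the upper quartile of clear genes at 12 h and 1 under the lower quartile. No test compares the classes, which hold 6, 4 and 6 genes.

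**Figure D3:**
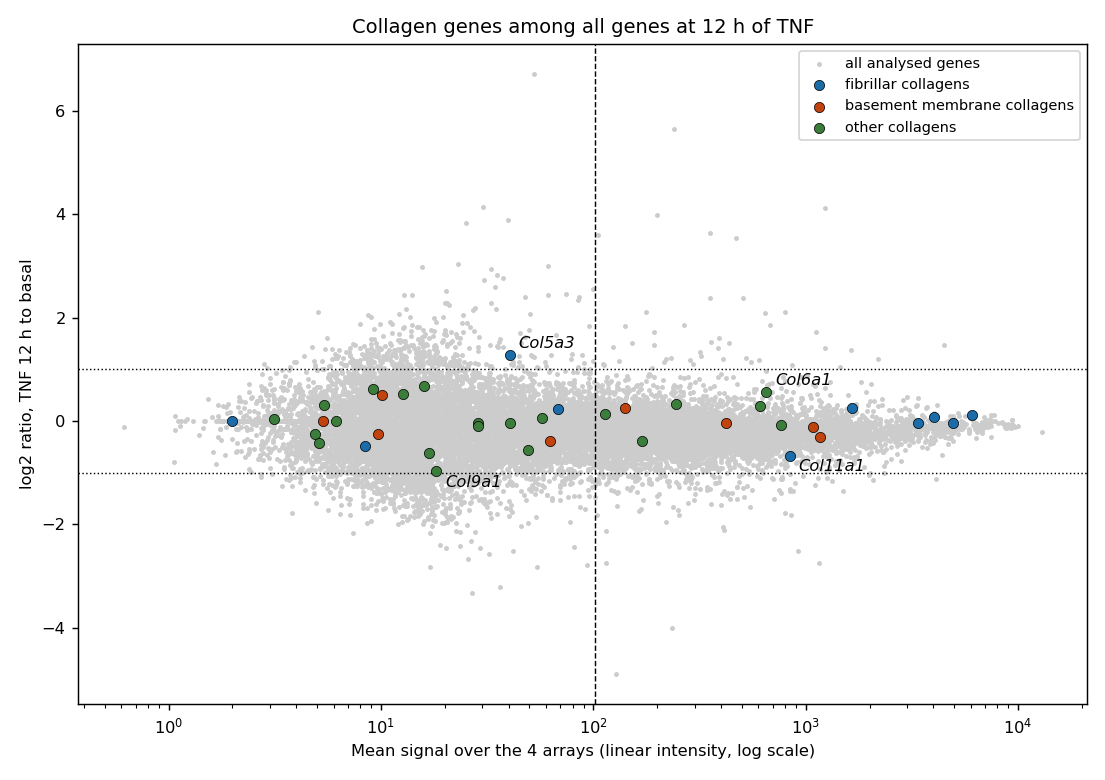
The log2 ratio of the 12 h array to basal (y axis) against mean signal (x axis, log scale) for the 16269 genes analysed (grey points) and 39 collagens (coloured by class). The dashed line is a signal of 102 and dotted lines mark 2-fold; Col5a3 is the only collagen above the upper dotted line, left of the dashed line, and no collagen is under the lower one.

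On the probe sets used, the range over arrays was narrow for the brightest members. Of 7 collagens with a mean signal of at least 1000, 5 (Col1a1, Col1a2, Col3a1, Col5a2 and Col4a5) had a highest signal less than 1.1-fold over the lowest. Over all 1040 genes with a mean of at least 1000, 23.1% did. Brightness within that set was not matched: Col1a1, Col1a2, Col3a1 and Col5a2 had means between 3398 and 6050. Other probe sets ranged wider for Col3a1 (1427884_at, 337 to 651) and Col1a1 (1455494_at, 946 to 1171). That of Col1a2 (1423110_at) lay between 2787 and 2900. The median of this range was 1.08-fold in those 7 collagens and 1.19-fold in the 1040 genes. Over the 16 clear collagens it was 1.22-fold, reaching 1.62-fold for Col11a1, beside 1.27-fold over all clear genes.

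Probe sets annotated to one gene showed how far a ratio depends on the probe set chosen, on the same arrays. Whether they read the same forms of its RNA was not tested, so a gap between them is not a measure of precision alone. Of the clear genes, 11 had at least 2 clear probe sets. The gap between the lowest and highest log2 ratio of a gene had medians of 0.06, 0.12 and 0.17 over the 3 times, and was under 0.2 for 10, 9 and 9 of the 11. All probe sets were on the same side of basal for 5, 8 and 10 genes. Col3a1 had the widest gap at each time: at 12 h its log2 ratios were 0.09 and -0.59. Many differences between collagens given above are no larger than such gaps. The 12 h gap of Col3a1, 0.68, was larger than the log2 ratios of Col6a1 (0.56) and Col11a1 (-0.67) in size. For Col11a1 itself the gap was 0.45, and Col6a1 has 1 probe set. Such gaps do not measure the spread between replicate arrays.

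**Figure D4:**
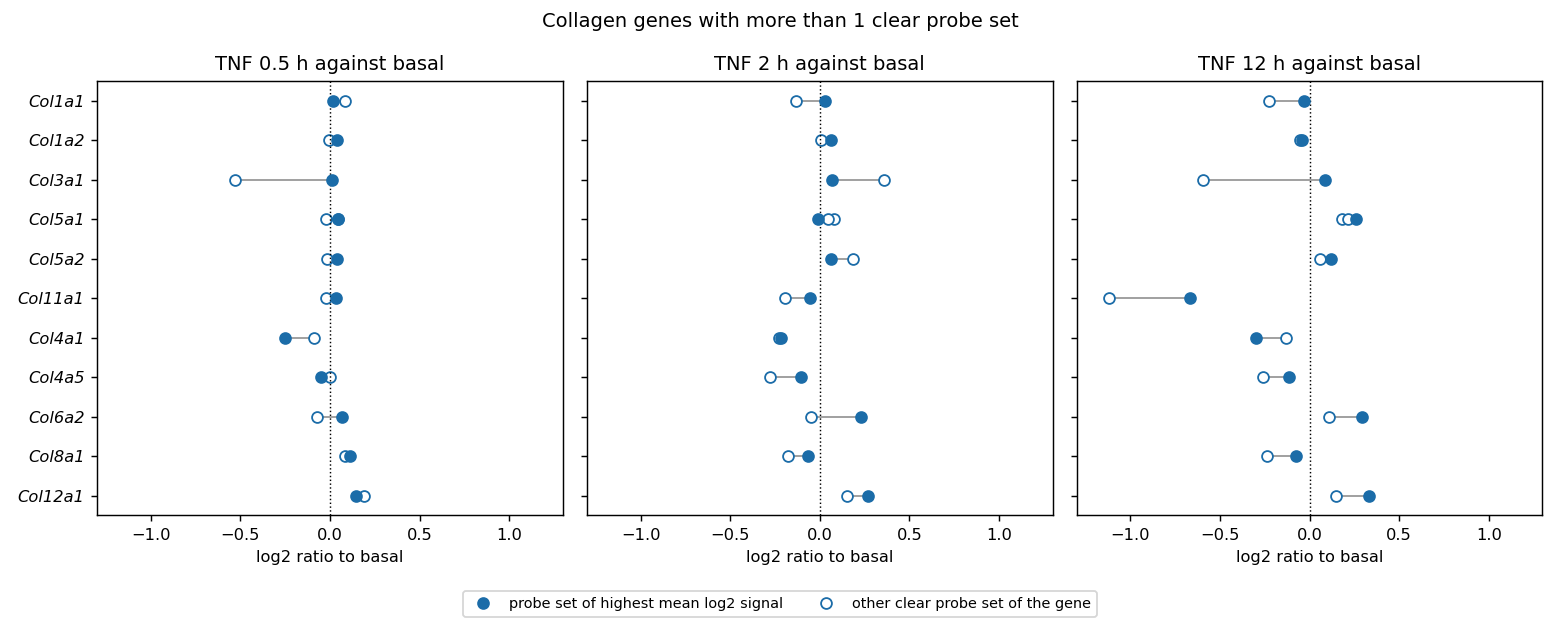
The log2 ratio to basal (x axis) of each clear probe set of the 11 collagen genes with at least 2 (rows) at 0.5, 2 and 12 h; filled points are the probe sets used in the text, open points the others, and a grey line joins those of a gene. Most lines are under 0.2 long, and Col3a1 has the longest at each time.

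The genes around the collagens were read from 6 lists. At 12 h the median log2 ratio of all clear genes was -0.21, and 0.648% of them rose and 2.31% fell. In lists of this size, 0 called genes is near those shares. Of the 20 genes that modify and fold collagen chains, 16 were clear and 0 passed 2-fold at any time. Their median log2 ratio at 12 h was -0.10, above that of all clear genes. Plod2, a lysyl hydroxylase for cross-linking sites, had signals of 325, 321, 274 and 179 (log2 ratio -0.86 at 12 h), and P3h4, of the prolyl 3-hydroxylase family, 542, 555, 498 and 361 (-0.59). Of 13 genes for propeptide removal and cross-linking, 7 were clear and 0 changed (median 0.003 at 12 h). Tll1, a procollagen proteinase of the tolloid group, had 99.3, 89.1, 116 and 140, and Loxl3, a lysyl oxidase, 167, 159, 157 and 120.

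Fibril-binding matrix proteins had 6 clear genes of 12, with 0 of the 6 changed and a median of 0.13 at 12 h. Of the 6 genes under 102, with signals of at most 30.3 for those called, Dcn fell at 0.5 and 2 h and Comp at 2 and 12 h. Lum rose at 0.5 and 12 h, and Tnxb at 2 and 12 h. Over all genes analysed, 2.55% rose and 2.96% fell at 0.5 h, 2.58% and 3.6% at 2 h, and 2.79% and 5.18% at 12 h. The share among genes under 102 was not worked out. With signals raised to 102, the log2 ratios of these called genes are 0. Postn, encoding periostin, had 153, 170, 205 and 249 (log2 ratio 0.71 at 12 h) and Tnc, encoding tenascin C, 462, 424, 457 and 572 (0.31). Of 8 collagen receptors 3 were clear, and 0 of these 3 changed. Under 102, the integrin alpha chain genes Itga2 (at 0.5 and 12 h) and Itga10 (at 12 h) fell, from signals of 21.1 and 29.2 in basal cells to under the floor. The same limit of low signals holds for these 2 genes. The integrin beta chain Itgb1 had a log2 ratio of -0.31 at 12 h and the discoidin receptor Ddr1 0.21.

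Among 10 collagen-degrading enzymes and inhibitors 6 were clear, and 1, the collagenase gene Mmp13, rose; it counts as clear only through its 2 and 12 h arrays. Its signals were 36.0, 55.6, 143 and 437, a 3.97-fold increase at 2 h and 12.1-fold at 12 h. Timp1, an inhibitor of these enzymes, had 1896, 1921, 2110 and 2486 (log2 ratio 0.39 at 12 h). The list's median at 12 h was -0.15, above the -0.21 of all clear genes.

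Of 15 genes of TGF-beta signalling, the main pathway known to drive collagen synthesis, 13 were clear and 0 passed 2-fold. At 12 h 11 of the 13 were below basal, with a median of -0.33 beside -0.21 for all clear genes, of which 77.9% were below basal, so the count was near the background. The ligand Tgfb2 had signals of 309, 343, 294 and 175 (log2 ratio -0.82) and the inhibitory Smad7 191, 177, 150 and 114 (-0.75).

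**Figure D5:**
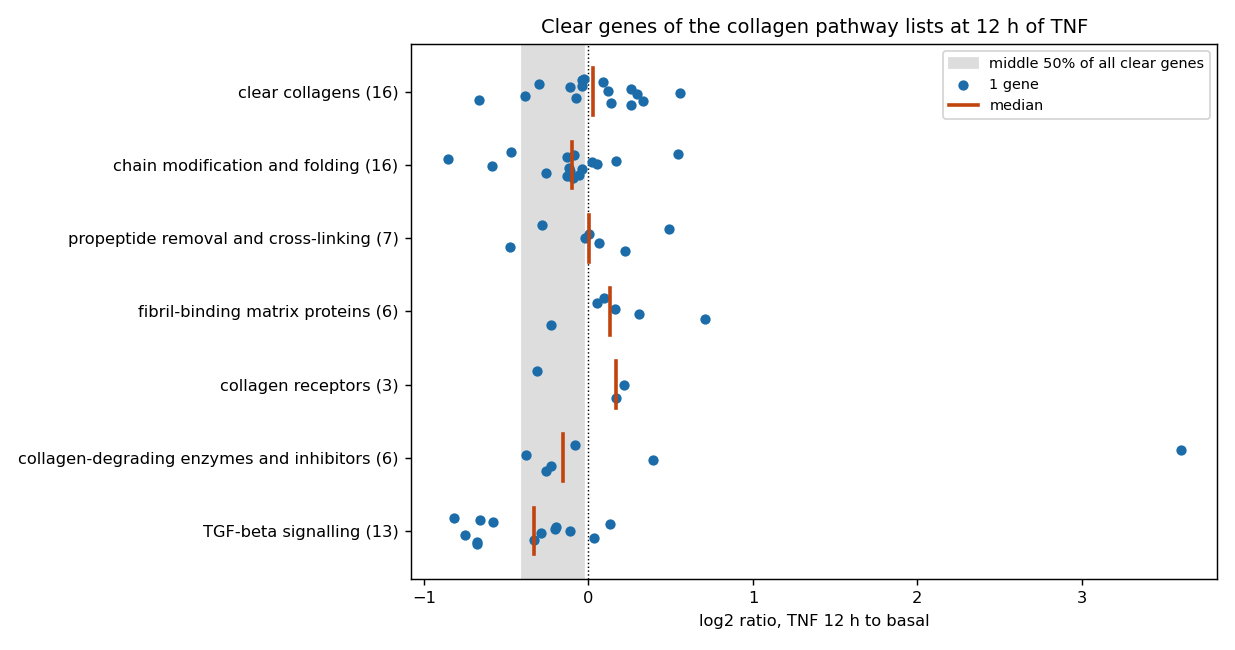
The log2 ratio of the 12 h array to basal (x axis) for the clear genes of the collagen family and of 6 pathway lists (rows, number of clear genes in brackets), 1 point per gene, a red bar at the median and a grey band for the middle 50% of all clear genes. Mmp13 is the single point past 3, and TGF-beta signalling has the lowest median.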

How the data were processed

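RNA of 1 sample per group (8 µg of total RNA) was hybridised to Affymetrix Mouse Genome 430 2.0 arrays, per the labels' protocols. The deposited values are linear intensities, 1 for each of 45101 probe sets and array; signal algorithm and scaling: not given in the sources used here. Of these, 34945 have 1 gene in the platform annotation, 932 several and 9160 none, beside 64 controls; all 42 collagen symbols were in RefSeq (GRCm38.p6). A floor of 9.08 (30th percentile of all values) was set, and 1924 genes at it on all arrays were left out. Rose and fell mean at least 2-fold. Clear genes had a mean log2 signal at or over the 75th percentile (102). Every collagen was named. From the lists, the clear members past 2-fold and the 2 clear members furthest from basal at 12 h were named. List members under 102 that passed 2-fold were named as well. Nfkbia and Cxcl1 served as a check of the TNF label. Array precision is limited by 1 array per group. Alternatives were other floors, scalings, probe set rules and folds. The members and lists were chosen with earlier results of these data known. Python 3.11.15 with pandas 2.3.3 and statsmodels 0.14.6 was used, and the counting steps were tested on simulated data. The lists' Fkbp10, Adamts2, Adamts14, Loxl2, Itga11 and Plin1 were not analysed here.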

Additional observations from a re-analysis of the deposited data

How the results depend on the processing

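No paired analysis was possible because each group has 1 array. Counts of collagens past 2-fold rested on low signals. Counts that stayed within 1.5-fold of those above are not listed. With the floor at the 20th percentile 1 rose and 2 fell at 0.5 h. At 2 h 4 fell, and at 12 h 2 rose and 1 fell. With no floor 1 rose and 4 fell at 0.5 h, and 3 rose and 6 fell at 12 h. At 2 h 6 fell, while Col6a4, Col20a1 and Col17a1 rose (log2 ratios 2.26, 1.29 and 1.14). Shares of all genes called at these floors were not worked out, so the counts have no background beside them. With the floor at the 50th percentile 0 rose at 2 h, and at the 75th percentile or by a 3-fold rule 0 rose at 2 or 12 h. By a 1.5-fold rule 3 fell at 0.5 h, 5 fell at 2 h, and 3 rose and 3 fell at 12 h. Of these, 1 clear gene, Col11a1, fell, while 11.6% of all clear genes fell and 1.88% rose by that rule at 12 h. The share of all genes analysed called by the 1.5-fold rule was not worked out, so the collagen counts by it have no background. Over the clear collagens, 0 changed 2-fold under any floor, scaling or probe set rule tried. At 12 h the median log2 ratios of all clear, fibrillar, basement membrane and other collagens became 0.18, 0.18, 0.077 and 0.37 (median centring), 0.21, 0.15, 0.15 and 0.43 (quantile normalization) or 0.22, 0.19, 0.15 and 0.44 (loess). When probe sets were averaged per gene, 14 collagens were clear, 1 collagen rose at 2 h and 1 fell at 12 h. Shares of all genes called with averaged probe sets were not worked out either. With this averaging, medians at 12 h were -0.083 for all and -0.19 for basement membrane collagens. Type IV chains alone had a median of -0.11. Of 696 values of 29 named genes under these alternatives 537 were within 0.1 (log2) of those given and 0 values past 2-fold changed sign; Col5a3 at 12 h is 0 with the 75th percentile floor and with averaged probe sets. The cause of these shifts was not tested.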

Other observations

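The profile of the fibrillar collagens was shared by other steady genes. Of 6776 clear genes outside the family, 177 had 3 log2 ratios to basal within a Euclidean distance of 0.1 from the median profile of the 6 clear fibrillar collagens (0.03, 0.05 and 0.03). The 5 nearest were Ltbp1, H2aj, Klhl11, Ccdc32 and Eipr1. Ltbp1, encoding a matrix protein that binds latent TGF-beta, was nearest, with signals of 1386, 1414, 1429 and 1418 on the basal, 0.5, 2 and 12 h arrays. All 5 share the same 4 arrays with the collagens, and a distance over 3 ratios is a description only.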
